A study of Mus musculus with 4 samples.

Results

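A set of 10 genes of the PDGF, FGF and VEGF-C families of growth factors and receptors were followed in TKPTS cells, a mouse renal proximal tubular epithelial line that the labels call TKPT. They are the ligands Pdgfa, Pdgfb, Fgf1, Fgf2, Fgf9 and Vegfc and the receptors Fgfr1, Fgfr2, Fgfr3 and Flt4, 10 of the 22063 genes listed in the deposited count table. The genes were selected by symbol with their levels and their difference between the groups in these same libraries already known, so both are given as a description, with no p for any of the 10; how many passed the thresholds of the fit over all genes is given once as a count. The libraries comprised 2 of cells transfected with a control siRNA (si-NC, labelled Scrambled, replicates 2 and 3; labelled wild type) and 2 of cells labelled with an Itgb6 siRNA (si-Itgb6, replicates 1 and 3; labelled Itgb6 knockdown). All 4 libraries came from cells kept for 24 h in a hypoxic incubator with 1% O2 and 5% CO2 and returned to normal oxygen for 12 h, and no library of cells without hypoxia was among them. The cells are 1 established line. The study's methods speak of biologically independent replicates for its experiments in general, but the labels do not tie the 2 libraries of a group to separate cultures, so the spread between them may be technical. The comparison asks how the RNA of these growth factor genes differed when the β6 subunit of integrin αvβ6 was targeted.

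Receptor tyrosine kinases of these families are activated when a secreted ligand brings 2 receptor molecules together at the cell surface. PDGF dimers are made by epithelium and endothelium and act mainly on mesenchymal cells that carry PDGF receptors; FGFs bind their receptors together with heparan sulfate and are known for epithelial to mesenchymal exchange in the developing and injured kidney. VEGF-C, once trimmed by proteases, activates VEGFR-3, the product of Flt4, and is best known for the growth of lymphatic vessels. Downstream of all of them lie adaptor proteins, the RAS-ERK and AKT kinases, and inhibitors such as the Sprouty proteins that the same signal induces.

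The 4 libraries held 15435074 to 17220281 estimated counts, and replicates of a group differed by more than the sampling noise, with a chi-square of 3.15 per gene between the si-NC libraries and 4.0 between the si-Itgb6 libraries. Itgb6 itself had 285 and 284 counts in the si-NC libraries and 279 and 260 in those labelled si-Itgb6, a log2 difference of -0.0051 (SE 0.13; edgeR's quasi-likelihood test, adjusted p = 0.991). As CPM the groups overlapped, with 17.5 and 16.4 against 18.0 and 15.8, so the RNA of the targeted gene did not separate them, and every direction given here is that of the libraries labelled si-Itgb6. All 6 epithelial markers of a list were counted in every library (summed level 2900 and 2930 CPM, counts scaled to the size of the library, in si-NC and 2720 and 2740 CPM in si-Itgb6). Krt8, Epcam and Cdh1 were lower in both si-Itgb6 libraries, Krt8 with 781 and 781 CPM against 685 and 677. Krt18, Pax8 and Cdh16 overlapped between the groups. Of all genes tested, 25.4% were lower in si-Itgb6 without overlap, so nothing is read from the separation of these markers. Their part in the differences below was not tested. By contrast, the proximal tubule transporters Slc34a1, Slc5a2 and Slc22a6 were at 0 in all 4, and the summed level of 10 proximal tubule markers, mostly Aqp1, was 31.1 and 35.9 CPM in si-NC and 45.8 and 46.3 CPM in si-Itgb6. In bulk RNA, fewer cells of a type and less RNA per cell cannot be told apart.

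The levels of the 10 genes covered a wide range, with Flt4 the highest and Fgf2 the lowest. Compared per length of transcript, as fragments per kilobase of transcript scaled to sequencing depth (FPKM, averaged over the 4 libraries), Flt4 stood at 19.8, followed by Pdgfa at 9.13, Pdgfb at 8.25, Fgf1 at 2.63, Fgfr3 at 2.45 and Fgfr2 at 1.72. Fgf9 at 0.459, Fgfr1 at 0.358, Vegfc at 0.111 and Fgf2 at 0.0235 FPKM lay below 1. The ranges over libraries overlapped between Pdgfa and Pdgfb, and between any pair of Fgf1, Fgfr3 and Fgfr2. They also overlapped between Fgf9 and Fgfr1 and between Fgf9 and Vegfc. The order within those pairs was thus not settled by the spread. Among 15357 genes with an FPKM above 0 in a library (median 4.5 FPKM), 76.0% lay below Flt4, 62.0% below Pdgfa and 9.8% below Fgf2. Thus 3 of the 10 genes were above the median gene.

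**Figure D1:**
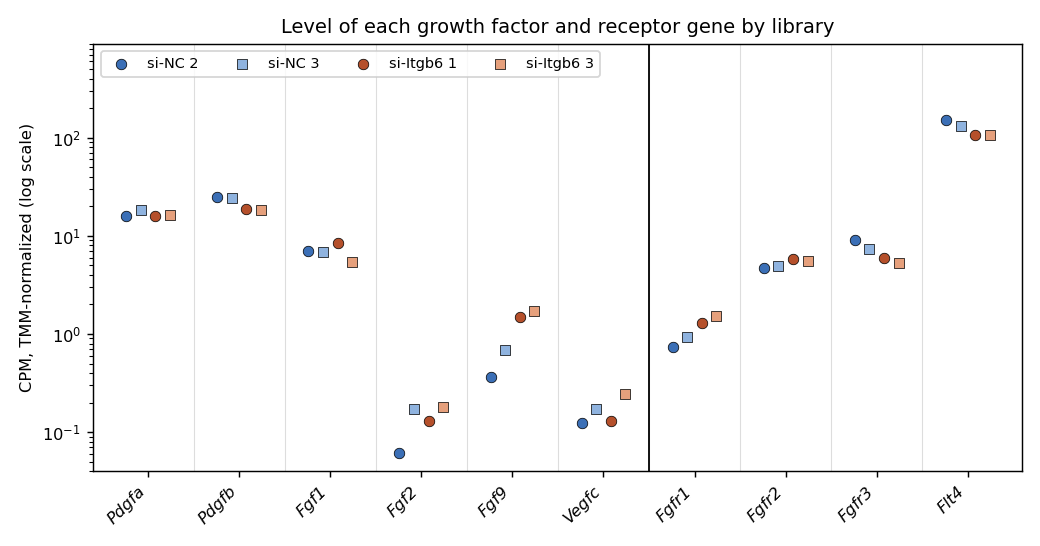
Level of each of the 10 genes in each library, as TMM-normalized CPM on a log axis; ligands are left of the black line and receptors right of it, blue marks are si-NC and orange marks si-Itgb6. Both orange marks lie below both blue ones for Pdgfb, Fgfr3 and Flt4 and above them for Fgf9, Fgfr1 and Fgfr2; CPM is not corrected for length, so heights are to be compared within a gene.

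Of the 10 genes, 8 passed the filter on low counts, and Fgf2 and Vegfc did not. Fgf9 passed it only through the si-Itgb6 libraries, with 23 and 28 counts there against 6 and 12 in si-NC. It fell out of the alternative that asks for 10 counts in every library. At the thresholds the study names, p under 0.05 and a fold change over 1.2, Pdgfb, Flt4 and Fgfr3 were past the lower side, beside 5.2% of the 11727 genes tested, and Fgf9 was past the higher side, beside 4.37%. At an adjusted p under 0.05 the count was 2 lower (Pdgfb and Flt4, beside 2.52% of all genes tested) and 0 higher (beside 2.11%). With the trends of GC content and length removed, the call of Pdgfb was lost. The CPM of the groups did not overlap for 3 genes that were lower in si-Itgb6 (25.4% of all genes tested) and 3 that were higher (23.8%). As the genes were chosen on this contrast, nothing is read from these counts.

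Flt4 encodes VEGFR-3, the receptor for VEGF-C and VEGF-D, and was the most abundant of the 10 and the one with the smallest error. It had 2501 and 2242 counts in the si-NC libraries and 1653 and 1745 in the si-Itgb6 libraries, or 153 and 130 CPM against 107 and 106 CPM. Both si-Itgb6 libraries were below both si-NC libraries, and they lay closer to each other than the si-NC libraries did. The means were 142 ± 16.7 and 106 ± 0.569 CPM (SD, n = 2 each), 24.8% less in si-Itgb6, with a log2 difference of -0.41 (SE 0.071). Leaving out each library in turn gave -0.52 to -0.29, the value nearest 0 being the one without si-NC replicate 2. On the FPKM scale the libraries kept the same order, with 24.7 and 20.8 in si-NC and 17.1 and 16.7 in si-Itgb6. Flt4 lies on chromosome 11 at 49609263 to 49652739 on the plus strand (GENCODE vM21, GRCm38), with no other gene's exon overlapping its own.

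VEGFR-3 is best known from endothelium, so endothelial markers were read beside it. Of 9 such markers, 2 were counted in every library (Cdh5 and Egfl7), Emcn and Erg were at 0 in all 4, and Pecam1 had 1 and 7 counts in the si-NC libraries against 0 and 0. The lymphatic markers Prox1 and Lyve1 had at most 2 counts in a library. The summed level of the 9 markers was 10.1 and 11.0 CPM in si-NC and 8.66 and 10.7 CPM in si-Itgb6. These sums overlapped between the groups. Egfl7, the most abundant of the 9, did not overlap, with 6.87 and 6.77 CPM in si-NC and 5.88 and 6.44 CPM in si-Itgb6. On the lower side 25.4% of all genes tested did not overlap either. Cdh5 overlapped, with 3.13 and 3.53 CPM against 2.58 and 4.01 CPM. The part of such cells in the difference of Flt4 was not tested.

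The ligand that gives the family its name here was nearly absent. Vegfc, for VEGF-C, had 2 and 3 counts in si-NC and 2 and 4 in si-Itgb6, sums of 5 (exact Poisson 95% interval 1.62 to 11.7, counting error only) and 6 (2.2 to 13.1). A difference between the groups was not detectable at this depth. Vegfd, for the other VEGFR-3 ligand, had 16 and 16 counts against 15 and 19 (log2 difference 0.16, SE 0.51; adjusted p = 0.911). Vegfc lies on chromosome 8 at 54077606 to 54187096.

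Pdgfa and Pdgfb encode the A and B chains of PDGF and stood next to each other in the order of levels. Pdgfb had 407 and 420 counts in si-NC and 288 and 304 in si-Itgb6, or 25.0 and 24.3 CPM against 18.6 and 18.5 CPM. Both si-Itgb6 libraries were below both si-NC libraries, as they were for 25.4% of all genes tested. The gene was chosen on this contrast, so nothing is read from that separation. The means were 24.6 ± 0.452 and 18.5 ± 0.1 CPM (SD, n = 2 each), 24.8% less in si-Itgb6, with a log2 difference of -0.41 (SE 0.12), and leaving out any library gave -0.43 to -0.39. Removing the trends of all genes with GC content and length brought Pdgfb to -0.27 (SE 0.11); its longest transcript is 60.0% GC. Pdgfb lies on chromosome 15 at 79995874 to 80014977 on the minus strand.

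Pdgfa had 260 and 315 counts in si-NC and 247 and 270 in si-Itgb6, or 15.9 and 18.2 CPM against 16.0 and 16.4 CPM. The groups overlapped, since si-NC replicate 2 was the lowest of the 4 libraries. Its log2 difference was -0.08 (SE 0.13; 95% interval -0.35 to 0.19) and changed sign, to 0.025, without si-NC replicate 3. An antisense gene overlaps exons of Pdgfa, and reads of the 2 strands cannot be told apart in these unstranded libraries.

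The receptors for these chains were low. Pdgfra, for the receptor that binds both chains, had 0 and 4 counts in si-NC and 2 and 4 in si-Itgb6, below the filter. Pdgfrb, for the receptor that prefers the B chain, had 52 and 55 counts in si-NC and 35 and 47 in si-Itgb6, a level of 0.531 FPKM over all libraries (log2 difference -0.31, SE 0.31; adjusted p = 0.643). The other PDGF ligands did not pass the test either, Pdgfc with a log2 difference of 0.56 (SE 0.62; adjusted p = 0.687) and Pdgfd with 0.24 (SE 0.15; adjusted p = 0.388).

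Among the FGF ligands, Fgf9 had the widest difference of the 8 genes and the fewest counts. FGF9 is a secreted ligand with high affinity for FGFR3 and is known for roles in lung, kidney and gonad development. Fgf9 had 6 and 12 counts in si-NC and 23 and 28 in si-Itgb6, or 0.368 and 0.695 CPM against 1.49 and 1.7 CPM. Both si-Itgb6 libraries exceeded both si-NC libraries. The means were 0.531 ± 0.231 and 1.59 ± 0.152 CPM (SD, n = 2 each), 2.95 times as much in si-Itgb6, with a log2 difference of 1.56 (SE 0.53). Leaving out each library in turn gave 1.19 to 2.1, the latter without si-NC replicate 3. Fgf9 lies on chromosome 14 at 58070547 to 58112720 on the plus strand, and its longest transcript is 40.9% GC.

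Fgf1, for acidic FGF, which binds every FGF receptor and lacks a signal peptide, had 113 and 119 counts in si-NC and 130 and 89 in si-Itgb6. The si-Itgb6 libraries were the highest and the lowest of the 4, and the si-NC libraries lay between them. The log2 difference was -0.0056 (SE 0.21; 95% interval -0.44 to 0.43) and ran from -0.35 to 0.28 as single libraries were left out. Fgf2, for basic FGF, had 1.07 and 3.07 estimated counts in si-NC and 2.06 and 3.05 in si-Itgb6, sums of 4 (exact Poisson 95% interval 1.09 to 10.2) and 5 (1.62 to 11.7) after rounding. No difference was detectable at this depth, and exons of Nudt6 overlap Fgf2 on the opposite strand. The ligand of this family with the highest level outside the 10 was Fgf7, for keratinocyte growth factor, with 249 and 251 counts against 193 and 250 (log2 difference -0.11, SE 0.14; adjusted p = 0.749; 0.027 without si-Itgb6 replicate 1).

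Of the 3 FGF receptor genes, Fgfr3 was lower and Fgfr1 and Fgfr2 were higher in the si-Itgb6 libraries on the CPM scale. Fgfr3 had 149 and 127 counts in si-NC and 93 and 87 in si-Itgb6, or 9.14 and 7.35 CPM against 6.01 and 5.28 CPM. On this scale both si-Itgb6 libraries were below both si-NC libraries. The means were 8.25 ± 1.26 and 5.65 ± 0.512 CPM (SD, n = 2 each), 31.5% less in si-Itgb6, with a log2 difference of -0.55 (SE 0.2), which became -0.38 without si-NC replicate 2 and reached -0.69 in the other fits that left out a library. The deposited FPKM of Fgfr3, 3.95 and 1.81 in si-NC and 2.45 and 1.58 in si-Itgb6, overlapped between the groups. The 2 scales part because the gene length implied by count and FPKM together was 2325, 4070, 2457 and 3294 bases in these libraries in the same order. Fgfr3 lies on chromosome 5 at 33721674 to 33737068 on the plus strand. A gene on the opposite strand overlaps exons of Fgfr3, and an antisense gene overlaps exons of Fgfr1. Reads of the strands cannot be told apart for either.

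Fgfr2, whose epithelial isoform binds FGF7 and FGF10, had 77 and 86 counts in si-NC and 90 and 91 in si-Itgb6 after rounding, or 4.72 and 4.98 CPM against 5.81 and 5.53 CPM. The groups did not overlap, yet the log2 difference of 0.22 was no larger than its SE of 0.22. Exons of Ctbp2 overlap Fgfr2 on the same strand in the annotation used here, which makes the split of shared reads uncertain. Fgfr1, which is mostly a receptor of mesenchymal cells, had 12 and 16 counts in si-NC and 20 and 25 in si-Itgb6, or 0.736 and 0.926 CPM against 1.29 and 1.52 CPM. The log2 difference was 0.75 (SE 0.49; 95% interval -0.25 to 1.75). Its FPKM, 0.375 and 0.314 in si-NC and 0.32 and 0.421 in si-Itgb6, overlapped, as its implied length was 1975 and 2959 bases in si-NC and 4049 and 3557 bases in si-Itgb6. The remaining receptor genes of the family gave log2 differences of -0.02 for Fgfr4 (SE 0.28; adjusted p = 0.981; 0.11 with GC and length trends removed) and -0.14 for Fgfrl1 (SE 0.12; adjusted p = 0.611), a receptor without a kinase domain and the most abundant of the FGF receptor genes at 11.5 FPKM.

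**Figure D2:**
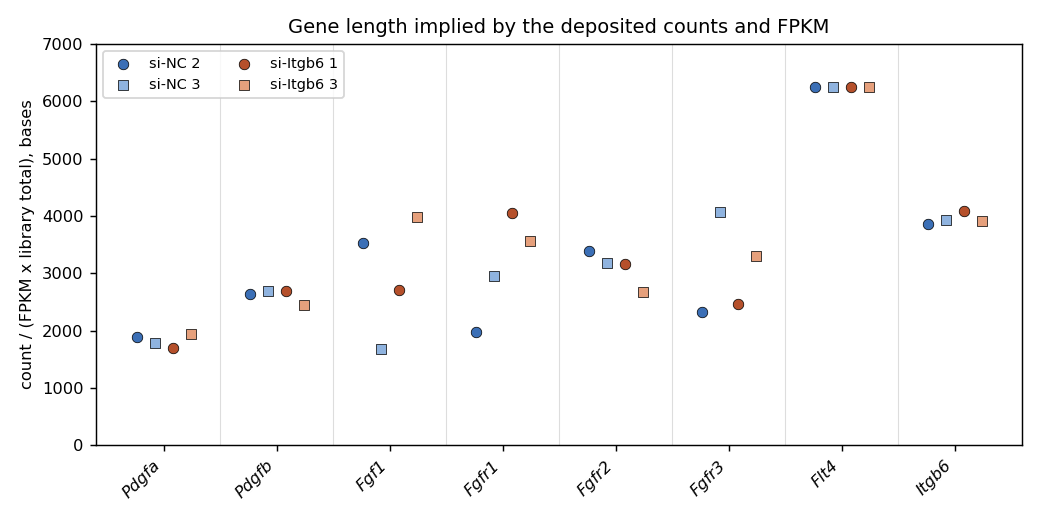
Gene length in bases that the deposited count, the FPKM and the library total imply together, per library, for genes with at least 10 counts in every library, and Itgb6. The 4 marks of Flt4 coincide at 6255 bases, while those of Fgf1 run from 1687 to 3982 and those of Fgfr3 from 2325 to 4070.

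**Figure D3:**
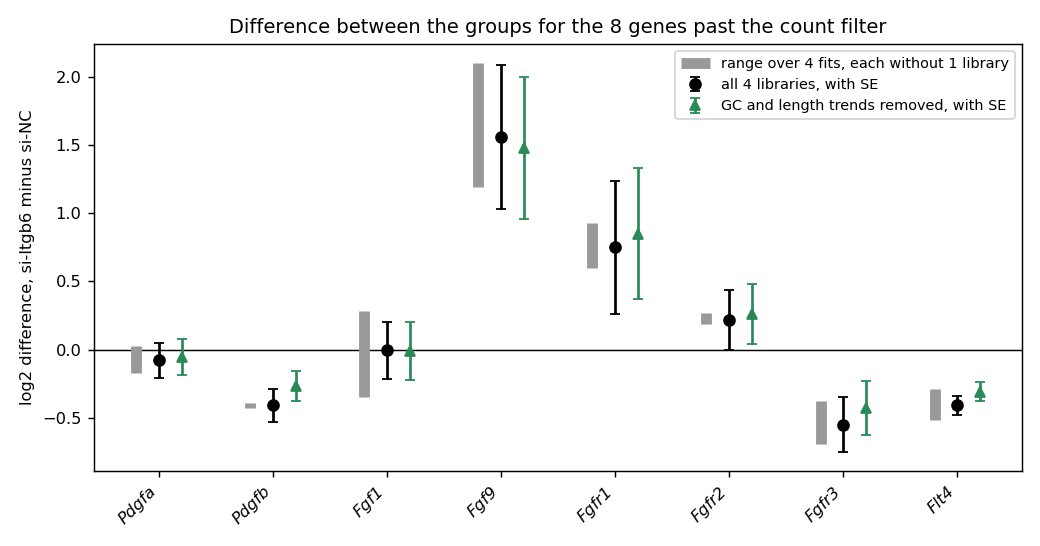
Log2 difference (si-Itgb6 minus si-NC) of the 8 genes past the count filter. Black points with bars give the value and its SE from all 4 libraries, grey bars the range over the 4 fits that each leave out 1 library, and green triangles with bars the value and SE with the trends of GC content and length removed. Fgf9 stands highest at 1.56 with the widest bar, Fgfr3 lowest at -0.55, and the grey bars of Pdgfa and Fgf1 cross 0.

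The log2 difference over all genes fell with the GC content of the transcript (Spearman's rho -0.364 over 11709 genes, a description across genes of the same 4 libraries), which bears on these genes unequally. The longest transcripts of the genes that were lower, Pdgfb, Flt4 and Fgfr3, are 60.0%, 56.5% and 56.4% GC. Those of the genes that were higher, Fgf9, Fgfr2 and Fgfr1, are 40.9%, 50.2% and 55.4% GC. With the trends of GC content and length removed, the log2 differences were -0.27 for Pdgfb, -0.31 (SE 0.069) for Flt4, -0.43 for Fgfr3 and 1.48 (SE 0.52) for Fgf9. Each of these kept its direction and each was smaller in size. Fgfr1 and Fgfr2 also kept theirs but moved away from 0, from 0.75 to 0.85 (SE 0.48) and from 0.22 to 0.26 (SE 0.22). The part of GC content in the first values was not tested.

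The starts of Flt4, Fgfr3 and Fgf9 are shown because these genes had the receptor and ligand differences furthest from 0 among those in the RefSeq promoter table. Each line gives the 250 bases before a RefSeq start (GRCm38.p6, plus strand, 5′ to 3′), at chr11:49609429-49609678 for Flt4, chr5:33721474-33721723 for the first of 2 starts of Fgfr3, and chr14:58072436-58072685 for Fgf9. In GENCODE vM21 Flt4 begins at 49609263 and Fgf9 at 58070547, so their windows lie inside the annotated genes and before the RefSeq start only. The window of Fgfr3 runs across its GENCODE start at 33721674. Capitals mark a GC box (GGGCGG on either strand, the core bound by Sp1 family factors) or the core of the hypoxia response element (ACGTG on either strand).

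Flt4: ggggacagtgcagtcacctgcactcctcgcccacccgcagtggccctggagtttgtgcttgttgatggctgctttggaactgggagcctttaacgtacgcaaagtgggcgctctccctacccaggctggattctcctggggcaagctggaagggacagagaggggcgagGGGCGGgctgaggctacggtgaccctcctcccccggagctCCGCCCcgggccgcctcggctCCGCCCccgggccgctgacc

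Fgfr3: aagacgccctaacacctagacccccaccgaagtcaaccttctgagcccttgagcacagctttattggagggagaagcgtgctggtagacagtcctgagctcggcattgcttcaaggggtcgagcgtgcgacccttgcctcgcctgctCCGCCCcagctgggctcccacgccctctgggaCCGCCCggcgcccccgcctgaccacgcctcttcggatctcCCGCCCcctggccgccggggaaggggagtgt

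Fgf9: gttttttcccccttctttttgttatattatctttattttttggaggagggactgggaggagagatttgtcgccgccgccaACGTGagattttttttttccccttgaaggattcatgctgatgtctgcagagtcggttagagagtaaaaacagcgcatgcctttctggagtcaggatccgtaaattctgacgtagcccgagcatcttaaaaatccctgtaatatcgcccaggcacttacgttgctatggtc

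The window of Flt4 is 68.4% GC with 3 GC boxes, that of Fgfr3 is 66.8% GC with 3 GC boxes, and that of Fgf9 is 44.8% GC with no GC box and 1 hypoxia response core. Over all 32851 promoter windows of that length the median GC content was 52.4%, 32.7% held a GC box and 16.6% held ACGTG. In all, 7 of the 10 genes matched the table, with 9 starts. Among the other starts, Fgfr2 was 44.0% GC without a GC box, while Fgf2 (62.4% GC, 1 box), Vegfc (71.6%, 2 boxes), the second start of Fgfr3 (72.8%, 2 boxes) and both starts of Pdgfa (66.4% with 1 box and 72.4% with 2) were GC rich. No window of the 9 held the TEAD core GGAATG, the AP-1 site TGANTCA or a CArG box on either strand, which 12.6%, 6.7% and 1.5% of all windows held. These motifs were chosen with the values known, and a match is a string of letters, not a bound site.

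**Figure D4:**
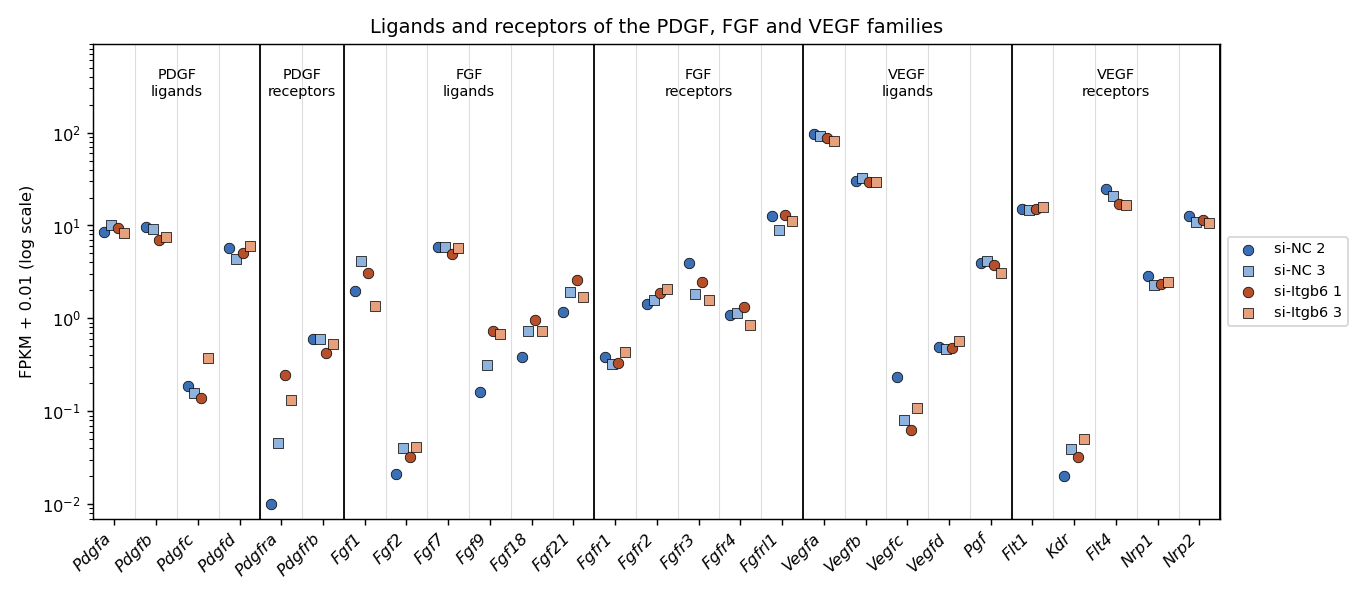
FPKM plus 0.01 (log axis) in each library for ligand and receptor genes of the 3 families, in the order ligands then receptors for PDGF, FGF and VEGF; blue marks are si-NC and orange marks si-Itgb6. Vegfa is the highest at a mean of 89.2 FPKM, Flt4 stands beside Flt1 among the receptors, and Pdgfra, Fgf2 and Kdr are at the bottom, Pdgfra with an FPKM of 0 in si-NC replicate 2.

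Among the ligands and receptors of the families outside the 10, Vegfa had the highest level. Vegfa, for the hypoxia-induced ligand of VEGFR-1 and VEGFR-2, stood at 89.2 FPKM with a log2 difference of -0.083 (SE 0.054; adjusted p = 0.446), and Flt1, for VEGFR-1, at 15.1 FPKM with 0.069 (SE 0.07; adjusted p = 0.657). Kdr, for VEGFR-2, had 1 and 3 counts in si-NC and 2 and 4 in si-Itgb6 and was below the filter. Flt4 was thus close in level to Flt1 in these cells, with Kdr nearly absent. Vegfb gave -0.059 (adjusted p = 0.79; 0.08 with GC and length trends removed), Pgf gave -0.22 (adjusted p = 0.636), and the co-receptors Nrp1 and Nrp2 gave -0.1 (adjusted p = 0.806) and -0.051 (adjusted p = 0.784). Fgf13, the highest of the intracellular FGF homologous factors, gave -0.067 (adjusted p = 0.819). Of 34 ligand and receptor genes outside the 10 found in the table, 10 were at 0 in all libraries and 17 were tested. Of those 17, 0 passed the thresholds by edgeR's quasi-likelihood test, where 9.57% of all genes tested did. An unadjusted p under 0.05 was reached by 0 of them, and DESeq2 likewise gave 0 on both counts.

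The lists of the wider pathway, drawn up with earlier results of these data known, held 128 other genes, of which 127 were in the table and 99 were tested. By edgeR's quasi-likelihood test at the study's thresholds 8 of the 99 were lower in si-Itgb6 (8.08%, against 5.2% of all genes tested) and 3 were higher (3.03%, against 4.37%). Removing the trends of GC content and length left 3 lower (3.03%, against 3.59% of all genes) and 3 higher (3.03%, against 3.58%). At an adjusted p under 0.05, 4 were lower (Hspg2, Ptpn11, Src and Srf) and 3 higher (Flrt2, Crkl and Spry4). Together these were 7.07% of the 99, against 4.62% of all genes tested (2.52% lower and 2.11% higher). The median log2 difference of the 99 genes was -0.051 (0.00017 over all genes tested), or -0.014 with those trends removed (0.0038 over all). Across alternatives, all 7 of these adjusted calls were lost without si-NC replicate 2, with adjusted p from 0.21 to 0.513. Those of Src, Crkl, Spry4 and Srf were also lost without si-NC replicate 3 (0.068, 0.0597, 0.0826 and 0.0814), those of Flrt2 and Crkl without si-Itgb6 replicate 1 (0.0516 and 0.103), and those of Flrt2 and Srf without si-Itgb6 replicate 3 (0.0661 and 0.0756).

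Among FGF co-receptors and carriers, 2 of 13 tested genes fell and 1 rose (15.4% and 7.69%, against 5.2% and 4.37% of all genes tested). Hspg2, for perlecan, a heparan sulfate proteoglycan of basement membranes that holds FGFs, fell from 2994 and 2727 counts to 2106 and 1945 (log2 difference -0.43, SE 0.071; adjusted p = 0.000338). Gpc1, for the cell surface proteoglycan glypican-1, had 331 and 346 against 206 and 278 counts (-0.42, SE 0.13; adjusted p = 0.0672). Flrt2, for a membrane protein that binds FGF receptors, rose from 20 and 49 to 74 and 73 counts (1.17, SE 0.32; adjusted p = 0.028), and its value ran from 0.7 to 1.91 as single libraries were left out. The adjusted p of Flrt2 was 0.0818 with GC and length trends removed, was at or over 0.05 in 4 of 11 alternatives and ranged from 0.0025 to 0.513. The most abundant of the list, Fgfbp1, for a carrier that frees FGFs from the matrix, stood at 229 FPKM with a log2 difference of -0.004 (SE 0.054; adjusted p = 0.98). Hspg2 and Flrt2 did not overlap between the groups, and Fgfbp1 did. Of all genes tested, 25.4% did not overlap on the lower side and 23.8% on the higher.

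Among proteases and cofactors that process these ligands, 1 of 7 tested genes passed the thresholds (14.3%, against 9.57% of all genes tested). Furin, which cuts the precursors of PDGF chains and VEGF-C, had 600 and 471 counts in si-NC and 404 and 429 in si-Itgb6 (-0.29, SE 0.12; adjusted p = 0.161), and its value was -0.065 without si-NC replicate 2. Plat, for tissue plasminogen activator, was the most abundant at 453 FPKM (0.044, SE 0.045; adjusted p = 0.658). Ccbe1, the cofactor of VEGF-C cleavage, gave -0.16 (SE 0.1; adjusted p = 0.445).

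Adaptors and effectors that bind the activated receptors held 3 lower genes and 1 higher gene of 21 tested. Those were 14.3% and 4.76%, against 5.2% and 4.37% of all genes tested. Ptpn11, for the phosphatase SHP2 that carries the signal from FGF and PDGF receptors to RAS, fell from 1679 and 1573 to 1107 and 1227 counts (-0.41, SE 0.075; adjusted p = 0.000964). Src, for the tyrosine kinase, fell from 1388 and 1421 to 1005 and 1115 counts (-0.34, SE 0.074; adjusted p = 0.00557), with an adjusted p of 0.2 once GC and length trends were removed and a range of 0.00119 to 0.264 over 12 alternatives. Plcg2, for a phospholipase C, gave -0.37 (SE 0.12; adjusted p = 0.0662). Crkl, for an adaptor, rose from 1062 and 1241 to 1424 and 1326 counts (0.33, SE 0.079; adjusted p = 0.0103), a call lost in 3 of 12 alternatives (adjusted p from 0.00075 to 0.417). These 4 genes were each separate between the groups, as were 25.4% of all genes tested on the lower side and 23.8% on the higher. They were named for passing thresholds on the same values, so nothing is read from that separation. Grb2, the most abundant adaptor at 93.6 FPKM, gave 0.044 (SE 0.068; adjusted p = 0.787).

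The kinases of the RAS-ERK and AKT routes showed 0 genes of 16 past the thresholds by edgeR's quasi-likelihood test, and 0 by DESeq2. By the edgeR test 9.57% of all genes tested passed. At an unadjusted p under 0.05 by that test, 3 were lower and 1 higher. No share of all genes stands beside that count, so nothing is read from it. Mapk3, for ERK1, the most abundant at 134 FPKM, gave -0.12 (SE 0.056; adjusted p = 0.266). Of 15 feedback inhibitors tested, 1 was lower and 1 higher (6.67% each, against 5.2% and 4.37% of all genes tested). Spry4, a Sprouty gene that FGF signalling induces, rose from 100 and 107 to 163 and 170 counts (0.76, SE 0.18; adjusted p = 0.0117), with a log2 difference of 0.74 to 0.77 whichever library was left out and an adjusted p from 0.00244 to 0.21 over 11 alternatives. Lrig3 gave -0.44 (SE 0.21; adjusted p = 0.257). Dusp6, for the phosphatase that inactivates ERK and a common readout of FGF signalling, stood at 65.0 FPKM with a log2 difference of 0.011 (SE 0.058; adjusted p = 0.948; -0.0035 when scaled by library size only). Spry1 and Spry2 gave -0.19 (adjusted p = 0.62) and 0.27 (adjusted p = 0.668).

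Of 10 target transcription factors tested, 1 passed the thresholds (10.0%, against 9.57% of all genes tested). Srf, for the factor that binds CArG boxes in immediate early genes, fell from 557 and 557 to 394 and 381 counts (-0.45, SE 0.11; adjusted p = 0.0103), and its adjusted p was 0.219 with GC and length trends removed, within 0.00263 to 0.322 over 12 alternatives. Ier3, an early response gene and the most abundant at 587 FPKM, gave -0.072 (SE 0.05; adjusted p = 0.475). Egr1 gave 0.23 (SE 0.34; adjusted p = 0.767).

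**Figure D5:**
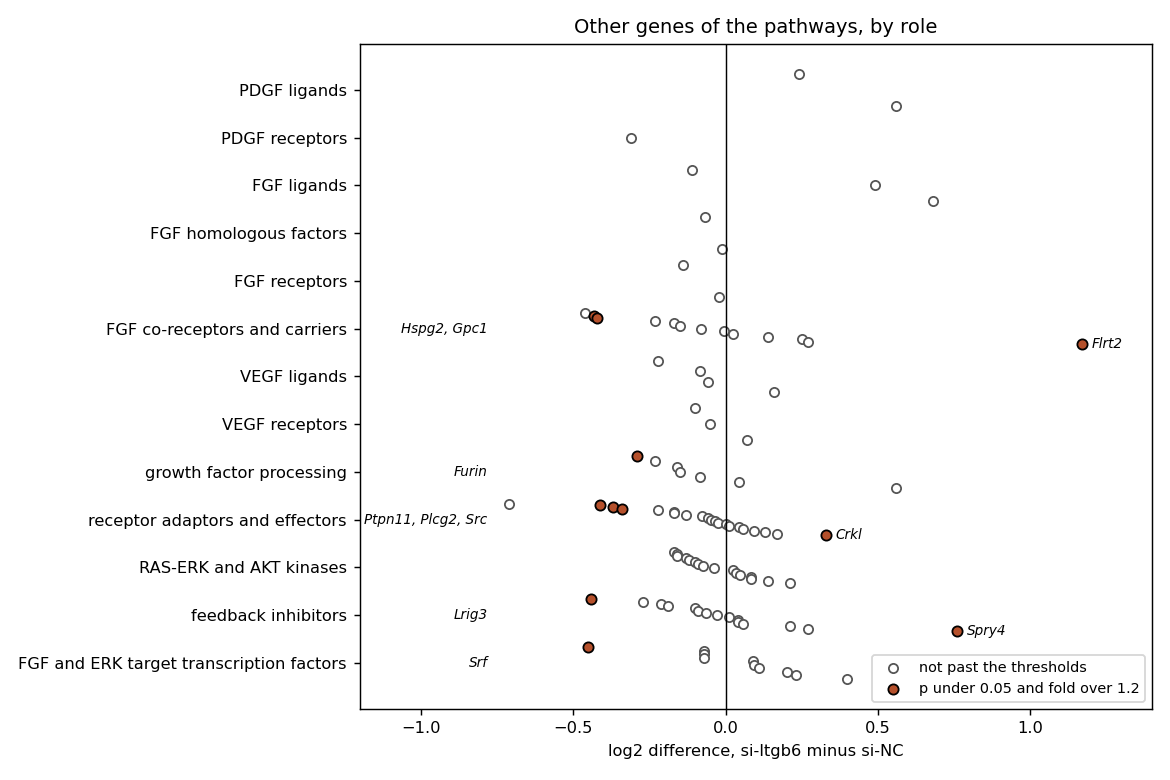
Log2 difference (si-Itgb6 minus si-NC) of the 99 other pathway genes tested, 1 point a gene, grouped by role; filled points passed p under 0.05 and a fold change over 1.2 and are named, at the left where lower and beside the point where higher. The 8 lower and 3 higher genes lie in 5 of the 13 lists, and no ligand or receptor list holds one.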

How the data were processed

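Polyadenylated RNA of the 4 libraries was sequenced in pairs without strand information. The authors deposited estimated counts per gene, not normalized, of which 1447 to 1500 genes per library were not whole, together with FPKM values that the authors computed per library. The aligner, counter and genome build are not given in the sources used here. The study's methods state that samples were optimized after a cluster analysis.

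Estimated counts were rounded, filtered with filterByExpr (minimum count 10, minimum total 15; 11727 of 22063 genes kept), scaled by TMM, and compared by edgeR's quasi-likelihood method (edgeR 4.0.16, limma 3.58.1, R 4.3.3). Adjusted p-values follow Benjamini-Hochberg over every gene tested. CPM uses TMM-scaled totals. SEs and 95% intervals come from that fit, which was first tested on simulated data. DESeq2 1.42.0 was an alternative. Per-library files held the same values as the table. Trends with the GC content and the length that a gene's longest transcript has (GENCODE vM21, GRCm38, which found 99.6% of the genes listed; 11709 of the genes tested) were removed by offsets in an alternative. FPKM entered no test. Implied length is count divided by FPKM and library total. Promoters came from RefSeq's table (GRCm38.p6; Python 3.11.15).

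The 10 genes, the pathway lists and the markers were chosen with earlier results of these data known. Named beside the 10 genes were Itgb6, their direct partners, every list gene with an adjusted p under 0.05, and in each list the most abundant gene and at most 2 past the thresholds with the largest difference; Gpc1, Ccbe1, Egr1, Spry1, Spry2, Nudt6, Ctbp2 and the markers were named after their values were seen. A comparison of protein sequences was not run, as no protein table was used here. With 2 libraries per group, no permutation of labels reaches a p of 0.05.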

Additional observations from a re-analysis of the deposited data

How the results depend on the processing

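No paired analysis was possible because the groups share only 1 replicate number. Of the 10 genes, Fgf9, Fgfr1 and Fgfr2 stayed higher and Pdgfb, Fgfr3 and Flt4 lower in every alternative run that kept them past its filter. As the CPM of the groups did not overlap for these genes, leaving out a library could not reverse them. The other alternatives reuse the same counts, so nothing is read from the shared direction. Leaving out single libraries moved Pdgfa between -0.17 and 0.025, Fgf1 between -0.35 and 0.28, and Itgb6 between -0.1 and 0.091. Pathway genes past the thresholds on the lower side numbered 3 in place of 8 with GC and length trends removed and 4 at an adjusted p under 0.05. They numbered 0 with edgeR at a fold change over 1.5, and 0 with DESeq2 too. At any fold, 15 were lower at an unadjusted p under 0.05 by edgeR and 11 by DESeq2. No share of all genes stands beside the 15 and the 11, so nothing is read from them. The higher count of 3 stayed within 1.5 times of itself in each alternative. Over all genes, the 610 lower and 512 higher calls became 383 and 320 with DESeq2, 295 and 247 at an adjusted p under 0.05, and 110 and 125 at a fold change over 1.5; leaving out single libraries gave 402 to 768 lower and 338 to 645 higher, the lowest both without si-NC replicate 2. Among named genes that were not called, log2 differences changed sign to -0.0035 for Dusp6 with library size only, and to 0.11 for Fgfr4 and 0.08 for Vegfb with GC and length trends removed. As single libraries were left out, the values ran from -0.018 to 0.044 for Dusp6, -0.25 to 0.027 for Fgf7, -0.045 to 0.038 for Fgfbp1, -0.35 to 0.26 for Fgfr4, -0.022 to 0.11 for Grb2, -0.25 to 0.059 for Nrp1, -0.14 to 0.049 for Nrp2 and -0.32 to 1.09 for Pdgfc. Apart from the GC and length alternative, whose construction gives it, the cause of these changes was not tested. With 6 to 28 counts of Fgf9 and 12 to 25 of Fgfr1 in a library, depth limits the precision of both, and Fgf2 and Vegfc lie under what it can compare.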

Other observations

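The gene length that an estimated count and its FPKM imply together differed between libraries for some of the FGF genes. Fgf1, for acidic FGF, gave 3536 and 1687 bases in si-NC replicates 2 and 3 and 2713 and 3982 bases in si-Itgb6 replicates 1 and 3, where its longest annotated transcript has 3983 bases. Fgfr3 gave 2325 and 4070 bases in si-NC and 2457 and 3294 in si-Itgb6. For Fgf1 and Fgfr3 the groups overlapped. For Fgfr1 the values were 1975 and 2959 bases in si-NC and 4049 and 3557 in si-Itgb6. For Fgfr2 they were 3387 and 3184 against 3163 and 2665. The groups did not overlap for Fgfr1 and Fgfr2, in opposite directions. No share of all genes stands beside that, so nothing is read from it. Fgfr1 had 12 to 25 counts in a library, under the 50 asked for in the ratios that follow. The longest value over the shortest was 2.36 for Fgf1 and 1.75 for Fgfr3, where 99.7% and 99.1% of the 9834 genes with at least 50 counts in every library had a smaller ratio (median 1.02; 2.43% over 1.5). The same ratio was 1.27 for Fgfr2, 1.14 for Pdgfa, 1.1 for Pdgfb and 1.0 for Flt4, whose implied length was 6255 bases in every library and equals its longest annotated transcript. The FPKM of Fgf1 thus ran from 1.34 to 4.1 over the libraries while its counts ran from 89 to 130. These ratios describe the deposited values of 4 libraries and were not tested against a transcript model.

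Markers of other cells were read in the same libraries. Of 10 fibroblast or mural markers, Acta2 and Cspg4 were at 0 in all libraries, and the summed level was 3.19 and 3.47 CPM in si-NC and 5.23 and 3.28 CPM in si-Itgb6. In si-Itgb6 replicate 1 Col1a1 had 22 counts, Col1a2 11 and the leukocyte marker Lyz2 11, where each of the other 3 libraries had 0 to 2 of each. Of 6 macrophage or leukocyte markers, Cd68 with 1534 to 1968 counts and Csf1r with 365 to 468 were counted in every library, and the summed level was 132 and 141 CPM in si-NC and 127 and 121 CPM in si-Itgb6. For Pdgfb, Flt4, Fgfr3 and Fgf9 both si-Itgb6 libraries lay on the same side of both si-NC libraries. Leaving out si-Itgb6 replicate 1 therefore could not reverse their direction. The part of such cells in the differences was not tested.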
